A study of Mus musculus with 9 samples.

Results

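Genes of transforming growth factor beta (TGF-beta) and bone morphogenetic protein (BMP) signaling were examined in cultured MC38 cells, a mouse colon carcinoma line. The 10 genes were chosen by symbol from the 16399 genes that every library lists. The ligands were Tgfb1, Tgfb2, Tgfb3, Bmp4 and Inhba, and the receptors Tgfbr1 and Tgfbr2. The others were the signal transducer Smad3, the inhibitory Smad7 and the target gene Id1. MC38-P is the parental line. MC38-LM3a and MC38-LM3b are liver metastatic derivatives of it, each established after 3 rounds of intrasplenic injection into C57BL/6 mice, resection of liver lesions, collagenase digestion and growth in culture. According to the methods, the injected cells carried a GFP-luciferase reporter. Each derivative is 1 established line, so its 3 replicates are samples of that line and not of separate selections. Poly(A) RNA of 3 replicates of each line, 9 libraries in all, was sequenced. How the replicate cultures were separated is not described, so p-values measure the spread between these samples only.

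Ligands of this family are dimers that bring a type II and a type I receptor kinase together on the cell surface. The type II receptor phosphorylates the type I receptor, which phosphorylates receptor Smads, and these enter the nucleus with Smad4 and regulate transcription. TGF-beta and activins act mainly through Smad2 and Smad3, and BMPs through Smad1, Smad5 and Smad9. Smad6 and Smad7 are inhibitors that are themselves induced by the pathway. In the intestinal epithelium TGF-beta restrains growth, and in advanced carcinoma it is known for its part in invasion and in suppression of immune cells.

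The type II receptor Tgfbr2 was higher in both derivatives, and on the values as deposited it was the one of the 7 genes past the expression filter that passed the test in both. Its partner Tgfbr1, the type I receptor, was lower in MC38-LM3a. The BMP target Id1 was lower and the inhibitory Smad7 higher in MC38-LM3b, and the call for Smad7 held in 9 of 19 alternative analyses. Id3, a BMP target outside the 10 genes, was higher in both derivatives. The ligands Tgfb1 and Tgfb3 and the transducer Smad3 did not pass in either derivative, and Tgfb2, Bmp4 and Inhba were below the expression filter of the main test. With the trends along GC content and transcript length removed, Tgfbr1 and Id1 were lower in both derivatives and Tgfb1 in MC38-LM3a.

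The bases before the start sites of both receptor genes are shown because the receptors were called in opposite directions in MC38-LM3a. The sequences are the 250 bases upstream of the RefSeq start, 5′ to 3′ on the gene's strand, in the GRCm38.p6 build. The submitters' processing notes name GRCm39, and these positions do not apply to that build. Tgfbr2 lies on the minus strand at chr9:116175364-116175613, and Tgfbr1 on the plus strand at chr4:47352972-47353221, which is the more upstream of its 2 listed starts. Capitals mark Sp1 boxes and CCAAT boxes.
Tgfbr2: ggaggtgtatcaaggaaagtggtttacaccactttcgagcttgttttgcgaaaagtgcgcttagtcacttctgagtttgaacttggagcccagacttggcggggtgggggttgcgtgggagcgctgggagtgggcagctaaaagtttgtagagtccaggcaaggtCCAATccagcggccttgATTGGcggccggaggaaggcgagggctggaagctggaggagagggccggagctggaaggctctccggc
Tgfbr1: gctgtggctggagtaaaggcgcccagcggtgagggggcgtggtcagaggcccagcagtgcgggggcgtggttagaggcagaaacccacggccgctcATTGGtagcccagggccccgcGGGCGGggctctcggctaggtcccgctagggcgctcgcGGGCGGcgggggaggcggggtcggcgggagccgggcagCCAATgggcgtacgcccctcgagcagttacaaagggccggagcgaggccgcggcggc

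Motifs were searched on both strands. The Sp1 box GGGCGG occurred 2 times before Tgfbr1 and 0 times before Tgfbr2, and 32.7% of the 32851 upstream windows in the table hold it. The CCAAT box, spelled CCAAT, occurred 2 times before each gene and is held by 33.8% of the windows. The SMAD box CAGAC occurred 1 time before Tgfbr2 and 0 times before Tgfbr1, against 42.2% of all windows, and the TATA box TATAAA (12.4%) was in neither. The window of Tgfbr1 was richer in G and C, at 74.8% against 58.4% for Tgfbr2. These matches describe the letters and not binding. The promoter table holds 7 of the 10 genes.

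Expression values are the TPM that the authors deposited (transcript abundances scaled for length and to the same total in each library), so levels of different genes can be set side by side. Each library sums to 1000000 TPM and has 10875 to 11218 genes at 1 TPM or more. The files give no read counts, so depth and counting error are unknown. Fold changes were computed on log2(TPM + 1), which understates the change of low genes, and tested with limma over the 11287 genes that reached 1 TPM in at least 3 libraries. Of the 10 genes, 7 passed that filter. Replicate 3 of MC38-P and replicate 3 of MC38-LM3a stood apart along transcript length: the deviation of a library from its own replicates had a Spearman correlation with length, across 11096 genes, of -0.62 and 0.64 for these libraries, and between -0.01 and 0.02 for those of MC38-LM3b. In groups of 3 the other replicates then deviate the opposite way (0.41 to 0.51 in MC38-P and -0.55 to -0.51 in MC38-LM3a). Results are therefore given also on values with the trends along GC content and transcript length removed from each library, called corrected values, and without both libraries. Against MC38-P the median log2 fold change over the tested genes was -2e-04 for MC38-LM3a and 0.21 for MC38-LM3b, where it fell to 0.01 on the corrected values.

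The labelled cell type is an epithelial cell. Of 8 epithelial markers, Krt8, Krt18, Krt19 and Epcam reached 1 TPM, with summed levels over all 8 of 2001 to 2316 TPM in MC38-P and 1583 to 1810 TPM in the derivatives, while Cdh1, which defines epithelial junctions, was at most 0.08 TPM. All listed hepatocyte markers stayed under 1 TPM in every library, and Ptprc, the pan-leukocyte marker, at or under 0.09 TPM. Of 5 listed macrophage markers 2 reached 1 TPM, Cd68 and Cd14, and their list summed to 38.9 to 40.2 TPM in MC38-P, 48.8 to 53.7 TPM in MC38-LM3a and 55.6 to 60.0 TPM in MC38-LM3b, in the same order as Tgfbr2. Cd68 (log2 fold changes of 0.33 for MC38-LM3a and 0.57 for MC38-LM3b) and Cd14 (0.39 and 0.44) passed as higher in both derivatives. Csf1r and Lyz2, also on that list, were at most 0.14 and 0.28 TPM. The part of such cells in the results was not tested. The 5 listed endothelial markers summed to at most 1.9 TPM.

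In this model 14.1% of all tested genes were higher and 13.8% lower in MC38-LM3a than in MC38-P at an adjusted p-value under 0.05. The corresponding shares in MC38-LM3b were 35.6% and 11.2%, and 29.2% and 28.3% on the corrected values. Of the 7 tested genes, 1 was higher (Tgfbr2) and 1 lower (Tgfbr1) in MC38-LM3a, and 2 were higher (Tgfbr2 and Smad7) and 1 lower (Id1) in MC38-LM3b. With so few genes these counts are near those shares. None of the 7 reached an absolute log2 fold change above 1. Both comparisons use the same MC38-P libraries, so their values are not independent.

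**Figure D1:**
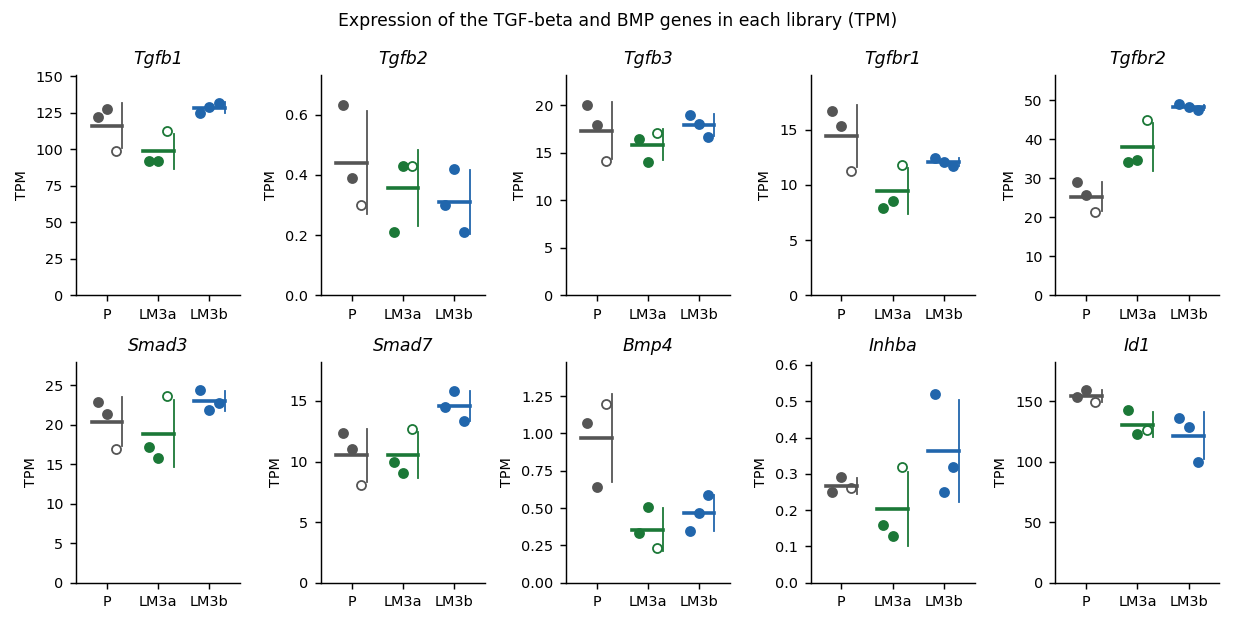
Each panel shows the TPM of 1 gene (vertical axis, from 0) in the 9 libraries, by line (P, LM3a and LM3b), with points for libraries, a horizontal bar for the mean and a vertical line for ± 1 SD. Open points are the libraries that stand apart along transcript length, and Tgfbr2 is the gene whose MC38-P libraries (21.37 to 28.94 TPM) all lie below those of MC38-LM3a (34.28 to 45.05 TPM) and MC38-LM3b (47.61 to 48.92 TPM).

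Tgfbr2 (NCBI Gene 21813) encodes the receptor kinase that binds TGF-beta and starts the signal. It had 28.94, 25.71 and 21.37 TPM in MC38-P replicates 1 to 3, 34.28, 34.75 and 45.05 TPM in MC38-LM3a, and 48.92, 48.22 and 47.61 TPM in MC38-LM3b. No library of either derivative overlapped with the parental ones. The ratio of mean TPM to MC38-P was 1.50 for MC38-LM3a and 1.90 for MC38-LM3b.

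The log2 fold change of Tgfbr2 was 0.57 for MC38-LM3a (SE 0.127, limma adjusted p = 0.00711) and 0.91 for MC38-LM3b (adjusted p = 3.15e-04). Read against the median of all genes, the rise in MC38-LM3b was 0.70. On the corrected values they were 0.64 (adjusted p = 4.17e-06) and 0.60 (adjusted p = 4.88e-06). Both calls held in all 19 alternative analyses, with log2 fold changes of 0.33 to 0.66 for MC38-LM3a and 0.60 to 1.01 for MC38-LM3b. The lowest value in MC38-LM3a was that without both libraries that stand apart along length, where the median of all genes was -0.14.

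Tgfbr1 (NCBI Gene 21812) encodes the type I kinase, also called ALK5, that phosphorylates Smad2 and Smad3. Its values were 16.69, 15.37 and 11.25 TPM in MC38-P, 7.91, 8.56 and 11.81 TPM in MC38-LM3a, and 12.41, 12.11 and 11.71 TPM in MC38-LM3b. The groups overlapped through the replicates 3 of MC38-P and MC38-LM3a. In MC38-LM3a the log2 fold change was -0.57 (standard error 0.165, limma adjusted p = 0.0261), while MC38-LM3b had -0.22 (adjusted p = 0.280), or -0.43 against the median of all genes, and -0.38 to -0.12 when 1 library was left out.

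The call for Tgfbr1 in MC38-LM3a held in 12 of 19 alternatives. With no filter its adjusted p was 0.0513. The call was also lost when MC38-P replicate 1 (adjusted p = 0.0929), MC38-P replicate 2 (0.0972), MC38-LM3a replicate 1 (0.101) or MC38-LM3a replicate 2 (0.0828) was left out, with log2 fold changes of -0.52 to -0.46. It stood when either replicate 3 was left out. The corrected values put Tgfbr1 lower in both derivatives, at -0.56 (adjusted p = 4.51e-05) and -0.51 (adjusted p = 6.33e-05). It was also called in MC38-LM3b after median centring (adjusted p = 0.00291), after quantile normalization (9.01e-04) and without both libraries that stand apart along length (8.02e-04).

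**Figure D2:**
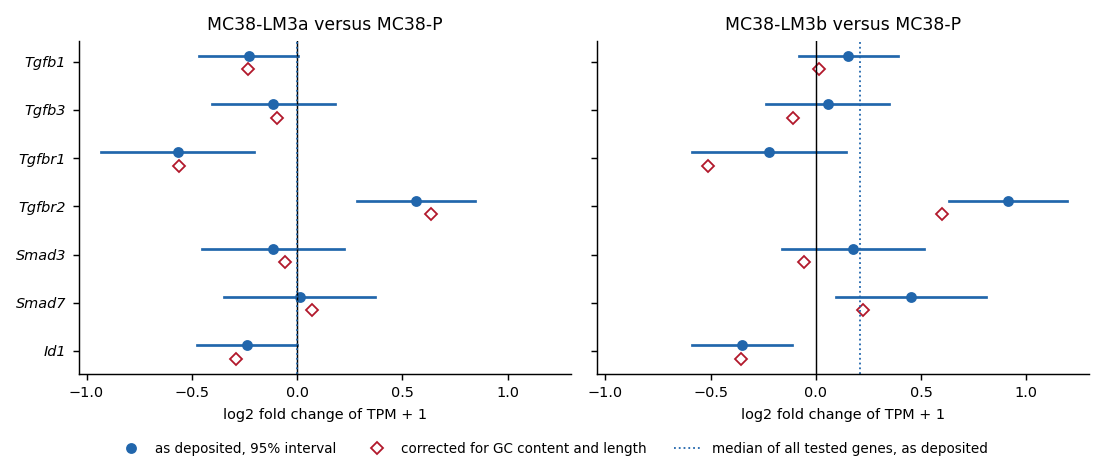
Log2 fold changes of TPM + 1 against MC38-P (horizontal axis) of the 7 tested genes in MC38-LM3a (left) and MC38-LM3b (right), with filled points and 95% confidence intervals from limma for the values as deposited, and open diamonds without intervals for the corrected values. The dotted line is the median of all tested genes, at 0.21 for MC38-LM3b, and Tgfbr2 lies to the right of it and Tgfbr1 and Id1 to the left of it in both panels.

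Since both receptor transcripts are long (8092 bases for Tgfbr2 and 5756 for Tgfbr1 in their longest annotated transcripts), their ratio within a library was computed, a measure chosen after the values were seen and therefore given without a test. The ratio of Tgfbr2 to Tgfbr1 was 1.73, 1.67 and 1.90 in MC38-P, 4.33, 4.06 and 3.81 for MC38-LM3a, and 3.94, 3.98 and 4.07 for MC38-LM3b. The means were 1.77 ± 0.117 (SD, n = 3), 4.07 ± 0.260 and 4.00 ± 0.0632. The groups of derivatives overlapped with each other and not with MC38-P. The libraries that stand apart along length had the highest ratio of MC38-P and the lowest of MC38-LM3a, and without them the means were 1.70 and 4.20.

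**Figure D3:**
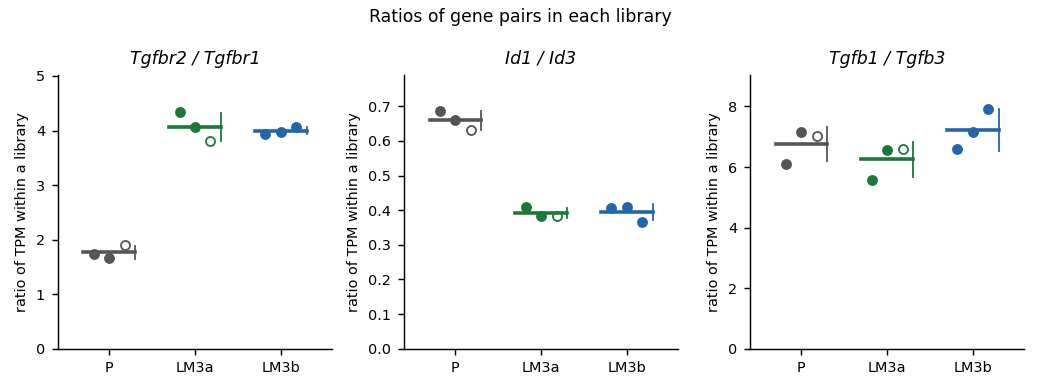
Ratio of the TPM of 2 genes within each library (vertical axis, from 0) by line, for Tgfbr2 to Tgfbr1, Id1 to Id3 and Tgfb1 to Tgfb3, with points for libraries, bars for means and lines for ± 1 SD. The derivative libraries lie at 3.81 to 4.33 for Tgfbr2 to Tgfbr1, above 1.67 to 1.90 in MC38-P, and at 0.37 to 0.41 for Id1 to Id3, below 0.63 to 0.69, while the groups overlap for Tgfb1 to Tgfb3.

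Among the ligands, Tgfb1 was the most abundant in every library. Tgfb1 (NCBI Gene 21803), the isoform of TGF-beta made by most carcinomas and leukocytes, had 122.07, 127.83 and 98.69 TPM in MC38-P, 91.96, 91.81 and 112.69 TPM in MC38-LM3a, and 124.96, 129.06 and 132.06 TPM in MC38-LM3b. The groups overlapped in both comparisons with MC38-P, and every library of MC38-LM3b was above every one of MC38-LM3a. The log2 fold change was -0.23 for MC38-LM3a (95% interval -0.47 to 0.01, adjusted p = 0.140 in limma) and 0.15 for MC38-LM3b (-0.08 to 0.39, adjusted p = 0.247). The latter was 0.04 without MC38-P replicate 3 and 0.01 on the corrected values.

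Between the derivatives, Tgfb1 differed by 0.38 (95% interval 0.15 to 0.62, unadjusted p = 0.00445, adjusted p = 0.119 in limma), against a median of 0.21 over all genes. In MC38-LM3a Tgfb1 was called lower in 7 of 19 alternatives, among them the corrected values (-0.24, adjusted p = 0.0170) and the fit without MC38-P replicate 3 or without MC38-LM3a replicate 3. In MC38-LM3b it was called in none of the 19.

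Tgfb3 (NCBI Gene 21809), a second TGF-beta isoform, had 19.98, 17.90 and 14.08 TPM in MC38-P, 16.48, 13.97 and 17.08 TPM in MC38-LM3a, and 18.99, 18.03 and 16.65 TPM in MC38-LM3b. All groups overlapped. The log2 fold changes were -0.11 (95% interval -0.41 to 0.18) and 0.06 (-0.24 to 0.35). In MC38-LM3a it passed in 1 of 19 alternatives, again that without both libraries that stand apart along length (-0.30, adjusted p = 0.0174), and leaving out 1 library gave -0.25 to -0.0081. The ratio of Tgfb1 to Tgfb3 within a library was 6.75 ± 0.561 (SD, n = 3) in MC38-P, 6.25 ± 0.580 for MC38-LM3a and 7.22 ± 0.678 for MC38-LM3b.

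The remaining ligands were barely expressed. Tgfb2 (NCBI Gene 21808), the remaining isoform, was between 0.21 and 0.63 TPM over all libraries, and Inhba (NCBI Gene 16323), the subunit of activin A, between 0.13 and 0.52 TPM. Both had overlapping groups in every comparison, and exact permutation tests of 3 against 3 libraries gave two-sided p-values of 0.3 to 0.6, where 0.1 is the smallest possible.

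Bmp4 (NCBI Gene 12159), a BMP ligand, had 1.07, 0.64 and 1.20 TPM in MC38-P, 0.33, 0.51 and 0.23 TPM in MC38-LM3a, and 0.35, 0.47 and 0.59 TPM in MC38-LM3b. Every parental library was above every derivative library, although it reached 1 TPM in 2 libraries only and so failed the filter. The exact permutation test gave p = 0.1 in each comparison with MC38-P, the smallest that 3 against 3 allow (two-sided). When no filter was used, the limma fit gave log2 fold changes of -0.53 for MC38-LM3a (adjusted p = 0.0157) and -0.41 for MC38-LM3b (adjusted p = 0.0307). Counting error at such levels is unknown here.

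The transducer Smad3 (NCBI Gene 17127) carries the TGF-beta and activin signal. It had 22.84, 21.37 and 16.94 TPM in MC38-P, 17.15, 15.83 and 23.67 TPM in MC38-LM3a, and 24.37, 21.85 and 22.78 TPM in MC38-LM3b. The groups overlapped, with log2 fold changes of -0.11 (95% interval -0.45 to 0.22) and 0.18 (-0.16 to 0.51). Both were -0.06 on the corrected values. For MC38-LM3a, Smad3 passed in 1 of 19 alternatives, the fit without both libraries that stand apart along length (-0.40, adjusted p = 7.70e-04), where 45.2% of all genes were lower, and leaving out 1 library gave -0.28 to -0.0047. Leaving out 1 library gave 0.05 to 0.26 for MC38-LM3b.

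Smad7 (NCBI Gene 17131) encodes the inhibitory Smad that recruits ubiquitin ligases to Tgfbr1. It had 12.38, 11.05 and 8.09 TPM in MC38-P, 9.99, 9.02 and 12.65 TPM in MC38-LM3a, and 14.50, 15.81 and 13.37 TPM in MC38-LM3b. Every library of MC38-LM3b was above every library of the other lines, while MC38-P and MC38-LM3a overlapped. The log2 fold change was 0.45 for MC38-LM3b (standard error 0.162, adjusted p = 0.0410 in limma), or 0.24 against the median of all genes, and 0.01 for MC38-LM3a (95% interval -0.35 to 0.37).

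The rise of Smad7 in MC38-LM3b was 0.22 on the corrected values (adjusted p = 0.0322). It stayed a rise in all 19 alternatives and passed in 9 of them. The call was lost after quantile normalization (0.18, adjusted p = 0.106), after median centring (0.23, adjusted p = 0.0691) and with no filter (adjusted p = 0.0726). It was also lost without MC38-P replicate 2 (adjusted p = 0.0674), MC38-P replicate 3 (0.135), MC38-LM3a replicate 1 (0.0541) or any of MC38-LM3b replicates 1 to 3 (0.0987, 0.131 and 0.0642), and without MC38-P replicate 3 the rise was 0.29. In MC38-LM3a, without both libraries that stand apart along length, the value of Smad7 became -0.28 (adjusted p = 0.0262), where the median of all genes was -0.14.

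Id1 (NCBI Gene 15901) encodes an inhibitor of basic helix-loop-helix factors and is a direct target of BMP signaling. It was among the most abundant of the 10 genes, with 153.87, 159.53 and 149.61 TPM in MC38-P, 142.78, 122.81 and 126.81 TPM in MC38-LM3a, and 136.66, 128.53 and 100.01 TPM in MC38-LM3b. Every derivative library was below every parental one. The log2 fold change was -0.24 for MC38-LM3a (95% interval -0.48 to -0.0021, adjusted p = 0.127 in limma) and -0.35 for MC38-LM3b (adjusted p = 0.0215), or -0.56 against the median of all genes.

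The call for Id1 in MC38-LM3b was lost without MC38-P replicate 2 (-0.33, adjusted p = 0.0675) and without MC38-LM3b replicate 3 (-0.22, adjusted p = 0.0696). The corrected values put Id1 lower in both derivatives, at -0.29 (adjusted p = 0.0292) and -0.36 (adjusted p = 0.00951). It has a short transcript, of 1160 bases.

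The related BMP target Id3 rose in both derivatives. Id3 had 223.97 to 241.14 TPM in MC38-P, 319.80 to 348.78 TPM in MC38-LM3a and 272.49 to 336.04 TPM in MC38-LM3b, with log2 fold changes of 0.51 (adjusted p = 8.29e-04) and 0.39 (adjusted p = 0.00267). In MC38-LM3b the call was lost under 1 of 19 alternatives, median centring (0.16, adjusted p = 0.257). The ratio of Id1 to Id3 within a library, also chosen after the values were seen and not tested, was 0.660 ± 0.0277 (SD, n = 3) in MC38-P, 0.393 ± 0.0145 for MC38-LM3a and 0.395 ± 0.0241 for MC38-LM3b. Id2 did not pass in either derivative (18.01 to 27.97 TPM over all libraries), and Id4 stayed under 1 TPM.

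Between MC38-LM3b and MC38-LM3a 0 of the 7 tested genes passed in limma, where 0.0532% of all genes did, and 3 of them (Tgfb1, Smad7 and Tgfbr2) had an unadjusted p-value under 0.05, as did 38.1% of all genes, a share near that of the 7. Tgfbr2 differed by 0.35 (95% interval 0.07 to 0.63) and Smad7 by 0.44 (0.08 to 0.80), against a median of 0.21. The corrected difference was -0.04 for Tgfbr2, 0.04 for Tgfbr1, 0.15 for Smad7 and 0.25 for Tgfb1, and 0 passed. Without MC38-LM3a replicate 3, 5 of the 7 were called higher in MC38-LM3b (Tgfb1, Tgfbr1, Tgfbr2, Smad3 and Smad7). In that fit 6351 genes passed, with 52.2% of all genes higher and 4.24% lower, and the median difference was 0.29.

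The rest of the pathway was described by lists of genes grouped by role, 114 genes in all, of which 100 are listed and 66 were tested. In MC38-LM3a 5 were higher (7.58%, against 14.1% of all tested genes) and 15 lower (22.7% against 13.8%), with a median log2 fold change of -0.08 against -2e-04 for all genes. In MC38-LM3b 23 were higher (34.8% against 35.6%) and 8 lower (12.1% against 11.2%), shares close to those of all genes, with a median of 0.20 against 0.21. On the corrected values 16 were higher (24.2% against 26.1%) and 22 lower (33.3% against 25.0%) in MC38-LM3a, and 21 (31.8% against 29.2%) and 18 (27.3% against 28.3%) in MC38-LM3b. Without both libraries that stand apart along length 6 were higher (9.09% against 18.4%) and 35 lower (53.0% against 45.2%) in MC38-LM3a, and 27 (40.9% against 46.3%) and 16 (24.2% against 19.0%) in MC38-LM3b.

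**Figure D4:**
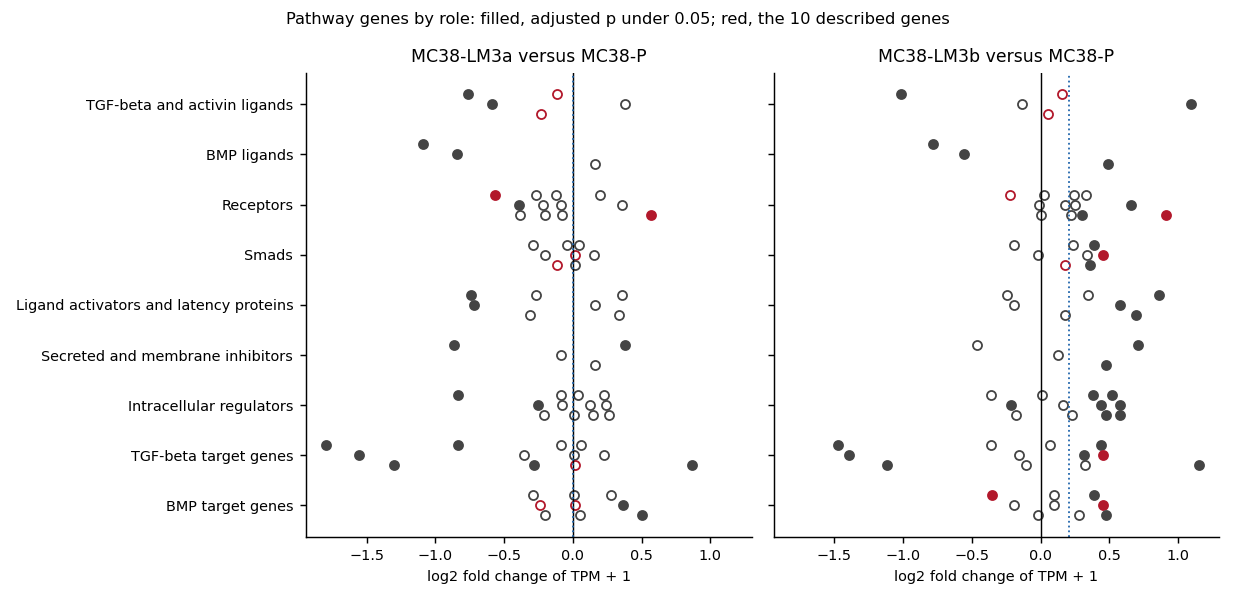
Log2 fold changes of TPM + 1 against MC38-P (horizontal axis) of the tested pathway genes by role (rows) in MC38-LM3a (left) and MC38-LM3b (right). Filled points have an adjusted p-value under 0.05, red points belong to the 10 genes and the dotted line is the median of all tested genes. Of the 3 tested BMP ligands, Bmp6 and Bmp2 lie to the left of 0 in both panels and Bmp7 to the right. In both panels 3 TGF-beta target genes lie below -1.

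Of 18 genes in the list headed TGF-beta and activin ligands, 5 were tested. Gdf15, a stress-induced member of the wider family, fell in both derivatives (limma adjusted p = 0.00335 and 4.40e-04). It had 4.98 to 6.94 TPM in MC38-P, 3.06 to 3.13 TPM in MC38-LM3a and 1.85 to 2.89 TPM in MC38-LM3b. Gdf11 was lower in MC38-LM3a (-0.59, adjusted p = 0.0128), and on the corrected values also in MC38-LM3b (-0.32, adjusted p = 0.00684), and Inha, the alpha subunit of inhibin, which antagonizes activin, was higher in MC38-LM3b (1.10, adjusted p = 0.00247).

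Of 15 BMP ligand genes, 3 were tested. The same 2 were lower in each derivative, where 13.8% (MC38-LM3a) and 11.2% (MC38-LM3b) of all genes were lower. The share of all genes lower in both derivatives is not given here. Bmp6 was the most abundant, with 16.54 to 18.98 TPM in MC38-P, 7.28 to 8.40 TPM in MC38-LM3a and 9.74 to 10.53 TPM in MC38-LM3b. Its log2 fold changes were -1.09 (adjusted p = 3.45e-05) and -0.78 (adjusted p = 2.13e-04), and -1.03 and -0.99 on the corrected values. Bmp2 went from 2.91 to 3.52 TPM in MC38-P to 1.35 to 1.42 TPM and 1.76 to 2.06 TPM (adjusted p = 3.06e-04 and 0.00253). Bmp7 was higher in MC38-LM3b (0.49, adjusted p = 0.0134, and 0.30 on the corrected values), and its value for MC38-LM3a was 0.16 (adjusted p = 0.418).

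Among 16 receptor genes 12 were tested. Besides Tgfbr1 and Tgfbr2, the activin type I receptor Acvr1b was lower in MC38-LM3a (-0.39, adjusted p = 0.0433), and the BMP co-receptor Rgmb (0.65, adjusted p = 0.00310) and the co-receptor Eng (0.30, adjusted p = 0.0474) were higher in MC38-LM3b. Eng lost its call on the corrected values (0.11, adjusted p = 0.378). Rgmb then passed as higher in both derivatives (0.415 for MC38-LM3a and 0.412 for MC38-LM3b). The activin type II receptor Acvr2a was then lower in both (-0.26 and -0.30), and Rgma was lower in MC38-LM3a (-0.285). The BMP receptors Bmpr1a (35.91 to 52.49 TPM over all libraries) and Bmpr2 (15.20 to 26.34 TPM) and the co-receptor Tgfbr3 (15.04 to 25.50 TPM) did not pass in either. The median of the receptor list was -0.16 for MC38-LM3a and 0.23 for MC38-LM3b.

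All 8 Smad genes were tested. None passed in MC38-LM3a (0 at an adjusted p-value under 0.05 in limma), where 14.1% of all genes were higher and 13.8% lower. In MC38-LM3b Smad1 (0.39), Smad4 (0.36) and Smad7 were higher, at adjusted p-values of 0.0165, 0.0221 and 0.0410. The share of all genes that were higher there was 35.6%, near that of the 8. Smad1 on the corrected values was higher in both derivatives (0.18 and 0.22) and Smad6 was lower in MC38-LM3b (-0.33, adjusted p = 0.0271), where Smad4 was 0.18 (adjusted p = 0.0111). The median of the list was -0.02 for MC38-LM3a and 0.29 for MC38-LM3b.

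Of the genes that activate or store latent ligand, 7 were tested. Ltbp4 (-0.74, adjusted p = 0.0126), a latent TGF-beta binding protein, and Thbs1 (-0.72, adjusted p = 0.0132), an activator of latent TGF-beta, were lower in MC38-LM3a. Ltbp1 (0.58, adjusted p = 0.0110), the integrin subunit Itgav (0.86, adjusted p = 0.00208) and the protease Bmp1 (0.69, adjusted p = 0.00135) were higher in MC38-LM3b. With the corrected values these 5, named because they had passed in 1 derivative, had adjusted p-values under 0.05 and the same direction in both. Ltbp1 was then 0.28 and Bmp1 0.44 for MC38-LM3b. Such values called 51.2% of all genes for MC38-LM3a, against 57.4% for the other derivative. Of the remaining tested genes, Furin then passed for MC38-LM3a only (-0.19, adjusted p = 0.00377) and Ltbp3 for neither. The shared MC38-P libraries keep the directions from being independent.

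Of the secreted and membrane inhibitors, 4 were tested. Nbl1, a BMP antagonist also called DAN, rose in both derivatives, from 9.09 to 10.93 TPM in MC38-P to 12.81 to 13.75 TPM and 16.35 to 17.25 TPM (adjusted p = 0.0154 and 3.07e-04). In MC38-LM3a it passed in 15 of 19 alternatives and lost its call without MC38-P replicate 2 (adjusted p = 0.0760) or without MC38-LM3a replicate 2. Bambi, a decoy receptor, was lower in MC38-LM3a (-0.86, adjusted p = 0.00422), with -0.46 for MC38-LM3b (adjusted p = 0.0509), where it passed on the corrected values (-0.74, adjusted p = 0.0227). Twsg1, a BMP-binding protein, was higher in MC38-LM3b (0.47, adjusted p = 0.00491, and 0.25 on the corrected values).

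Of the intracellular regulators 12 were tested. In MC38-LM3a 2 were lower, where 13.8% of all genes were, a share near that of the 12. They were the TGF-beta feedback inhibitor Pmepa1 (-0.84, adjusted p = 0.00167) and Strap, a protein that binds both receptors (-0.26, adjusted p = 0.0173). In MC38-LM3b 6 were higher, where 35.6% of all genes were: the Smad repressors Ski and Skil, the ubiquitin ligases Smurf1, Smurf2 and Nedd4l, and Zfyve9, at log2 fold changes of 0.38 to 0.58, and Strap was lower (-0.22, adjusted p = 0.0253). Without MC38-P replicate 1 or 2 the call for Strap was lost in both derivatives, and it passed in 13 of 19 alternatives in each (adjusted p up to 0.0714 and 0.0956). It was also lost without replicate 1 or 2 of MC38-LM3a in that line, and without any of replicates 1 to 3 of MC38-LM3b in the other. The corrected values gave 5 higher and 3 lower in each derivative, against 26.1% and 25.0% of all genes in MC38-LM3a and 29.2% and 28.3% in MC38-LM3b. In MC38-LM3b Zfyve9 then lost its call (0.11, adjusted p = 0.129) and Skil was 0.15 (adjusted p = 0.0312), while Smurf1 was 0.22, Ski 0.26, Nedd4l 0.29 and Smurf2 0.35. Strap was then -0.42, and Pmepa1 was lower there too (-0.58, adjusted p = 1.93e-04).

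Targets of TGF-beta moved in both directions. Of 12 tested, Col1a1, Fn1 and Tgfbi fell in both derivatives and Snai2 rose in both. Tgfbi, a secreted matrix protein named for its induction by TGF-beta, had 5.63 to 8.75 TPM in MC38-P, 2.24 to 2.64 TPM in MC38-LM3a and 1.74 to 2.64 TPM in MC38-LM3b, log2 fold changes of -1.30 and -1.40 (adjusted p = 2.71e-04 and 1.24e-04). Col1a1, a collagen chain, went from 10.36 to 15.99 TPM to 3.52 to 5.03 TPM and 4.17 to 4.44 TPM. Fibronectin, Fn1, changed by -1.79 and -1.11 on the log2 scale. Snai2, a transcription factor of mesenchymal cells, changed by 0.87 and 1.15.

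Ccn2, a matricellular protein, did not pass (0.23 and 0.32, adjusted p = 0.206 and 0.0517). Junb was lower in MC38-LM3a (-0.28, adjusted p = 0.0127, and -0.15 on the corrected values). In all, of the 12 targets 1 was higher and 5 lower in MC38-LM3a, where 14.1% and 13.8% of all genes were, and 4 were higher and 3 lower in MC38-LM3b, against 35.6% and 11.2%. The corrected values gave 1 higher and 6 lower (26.1% and 25.0% of all genes), and 4 higher and 5 lower (29.2% and 28.3%).

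Markers of stellate cells and fibroblasts, which make Col1a1, did not all move with these targets. Their summed level over 8 listed genes was 136 to 174 TPM in MC38-P and 54.7 to 73.4 TPM in the derivatives, and Col3a1 made up most of it (122.84 to 154.16 TPM in MC38-P). Of the 4 that reached 1 TPM, Col3a1 and Col1a1 fell in both derivatives. Pdgfrb, a receptor of mesenchymal cells, rose in MC38-LM3b (0.88, adjusted p = 6.95e-04), with 0.30 for MC38-LM3a (adjusted p = 0.135, and 0.38 with adjusted p = 0.00751 on the corrected values), and Pdgfra passed in neither (-0.23 and 0.09). Des, a stellate cell filament under 1 TPM, had 0.85 to 0.93 TPM in MC38-P, 0.23 to 0.29 TPM in MC38-LM3a and 0.19 to 0.30 TPM in MC38-LM3b, with every derivative library below every parental one. The derivative libraries were also all lower for Col1a2 (at most 0.08 TPM), and Dcn (at most 0.13 TPM) was near 0. The part of such cells in the fall of Col1a1, which belongs to both lists, was not tested. Fewer cells of a type and less RNA per cell cannot be told apart in bulk samples.

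Of 9 tested BMP targets, Id3 and Msx2 rose in both derivatives. Msx2, a homeobox factor, went from 0.95 to 1.26 TPM in MC38-P to 1.61 to 1.95 TPM in MC38-LM3a and 1.71 to 2.27 TPM in MC38-LM3b (adjusted p = 0.0465 and 0.0104), and passed in 6 of 18 and 14 of 18 alternatives. Its corrected value for MC38-LM3b was 0.31 (adjusted p = 0.0473). Besides these, Smad7 was higher and Id1 lower in MC38-LM3b, while Smad6, Smad9, Msx1, Atoh8 and Id2 did not pass. In all, 2 of the 9 were higher and 0 lower in MC38-LM3a, where 14.1% and 13.8% of all genes were. In MC38-LM3b 3 were higher and 1 lower, against 35.6% and 11.2%. With so few genes these counts are near those shares. The median of the list was 0.01 for MC38-LM3a and 0.10 for MC38-LM3b.

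Across the 9 libraries, the genes most similar to Tgfbr2 by Pearson's r of log2 values were Adam9, Ensa and Dnajc3 (r = 0.997 each), and those most similar to Tgfbr1 were Sf3b3 (0.996), Cenpu (0.995) and Prkaa1 (0.995). These are descriptions over 9 points that share their libraries, whose deviations along transcript length move many genes together.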

How the data were processed

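Poly(A) RNA of 3 MC38 lines, the parental and both derivatives, with 3 replicates each, was sequenced on the DNBSEQ platform. The authors deposited 1 file of TPM per library, rounded to 2 decimals. The submitters' processing notes name HISAT and GRCm39; the quantification tool and annotation are not given in the sources used here. Conditions were taken from the sample titles.

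The test was limma 3.58.1 under R 4.3.3, applied to log2(TPM + 1). The authors' methods name DESeq2 for their own comparisons, which needs counts. A model with a mean per group and a trended variance was fitted to all 9 libraries for the 11287 genes that 3 or more libraries hold at 1 TPM or higher. Benjamini-Hochberg adjustment ran over all tested genes, with a threshold of 0.05, and an absolute log2 fold change above 1 as in the methods is mentioned where used. Corrected values come from a loess fit (span 0.3) per library on the longest GENCODE M21 transcript, available for 98.3% of tested genes, and it also centres each library. Confidence intervals are at the 95% level of limma's moderated statistic. Promoter sequences come from RefSeq (GRCm38.p6).

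The 10 genes and the pathway lists were chosen with earlier results of these data known. Genes named from each list are the up to 4 with the largest mean change among those past the threshold in both derivatives. For the gene with the largest mean rise and the one with the largest mean fall, the 3 genes of highest Pearson's r were named. Others named beside a count were chosen after their values were seen. The alternatives changed the pseudocount (0.1), the filter, the libraries, the replicate block and the scaling, and left out each library in turn. The fit without both libraries that stand apart along length, and the ratios, were added after seeing the data. The fit was tested on simulated data with independent noise in each library and planted changes larger than those of the 10 genes. That check does not cover small changes or shared deviations along transcript length. The values of 1 TGF-beta target gene are not reported here, although it is part of the list's counts.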

Additional observations from a re-analysis of the deposited data

How the results depend on the processing

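The log2 fold changes of Tgfbr2 against MC38-P kept their direction and call in all 19 alternatives in both derivatives. In MC38-LM3a 2 of the 7 tested genes were called, and 28.0% of all genes. The number was 1 with only the 2 groups compared in the fit (18.9% of all genes) and 1 with a replicate block (19.5%), where Tgfbr1 was lost. With no filter it stayed 2, of 10 (19.5% of all genes), with Bmp4 called and Tgfbr1 not. It was 4 on values corrected for GC content and length (51.2% of all genes), 4 with the replicate block and that correction together (47.1%), and 6 without both libraries that stand apart along length (63.6%). The 20 of 66 pathway genes called in MC38-LM3a (30.3%) became 38 after that correction (57.6%), 38 with the block added to it, 32 after median centring (48.5%, against 40.0% of all genes), 31 after quantile normalization (47.0% against 42.0%) and 41 without both libraries (62.1%), so the count moved with that of all genes. Leaving out each library in turn gave 1 to 3 of the 7 genes and 11 to 27 pathway genes in MC38-LM3a. The share of all genes called in these fits was 18.6% to 37.4%. In MC38-LM3b the counts were 1 to 3 and 22 to 38, against 33% to 59% of all genes. Between the derivatives 0 to 5 of the 7 genes were called, against 0% to 56.4% of all genes. That number was 6 without both libraries, where 71.7% of all genes were called.

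Several values that had not passed the test changed sign. For MC38-LM3b against MC38-P, Tgfb3 (0.06) was -0.11 after correction for GC content and length, with and without the replicate block, -0.17 after median centring, -0.19 after quantile normalization and -0.078 without both libraries. Smad3 (0.18) was -0.0557, -0.0557 with the block, -0.0476 and -0.0639 in the same order, and Tgfb1 (0.15) was -0.0686 after median centring. Between the derivatives, Tgfbr2 (0.35) was -0.0388 and Tgfb3 -0.012 after the correction, with and without the block, and Tgfb3 was -0.0538 after median centring and -0.0775 after quantile normalization. Smad7 in MC38-LM3a was -7e-04 after quantile normalization and -0.28 without both libraries. Over the fits that leave out 1 library, Smad7 in MC38-LM3a ranged from -0.15 to 0.13, Tgfb3 in MC38-LM3b from -0.078 to 0.16, and Id1 between the derivatives from -0.20 to 0.0219. The cause of these changes was not tested.

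Over all genes, 3160 were called in MC38-LM3a, 2101 with only the 2 groups compared, 5676 after correction for GC content and length, 5230 with the block added and 7111 without both libraries. Between the derivatives 6 were called, 2 to 3 with another pseudocount, a filter of 5 TPM, the replicate block or 2 groups in the fit, 5 to 22 after rescaling, with or without the block, and 8025 without both libraries. Leaving out each library gave 2083 to 4211 and 0 to 6351. The deviations of same-numbered replicates had correlations from -0.66 to 0.07, with 0 of 9 over 0.1. The negative ones were between MC38-P and MC38-LM3a, whose replicates 3 deviate in opposite ways along length. With MC38-LM3b every same-numbered pair was positive (0.0353 to 0.0748), against -0.0627 to 0.0073 for the other pairs. Whether the numbers pair the libraries therefore cannot be told from these values. The block also lost Smad7 in MC38-LM3b (limma adjusted p = 0.0896), Nbl1 in MC38-LM3a, Strap in both derivatives and Msx2 in MC38-LM3a. Without read counts, the depth behind low values such as those of Bmp4 is unknown.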
